A study of Rattus norvegicus with 2 samples.

Results

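Homeostatic chemokines are small secreted proteins that are made without an inflammatory stimulus and place lymphocytes within lymphoid tissue. CCL19 and CCL21 draw CCR7-bearing T cells and dendritic cells into the T cell zone, and CXCL13 draws CXCR5-bearing B cells and helper T cells into follicles. CXCL12 acts through CXCR4, which holds and moves many kinds of leukocytes, and is also bound by ACKR3, an atypical receptor that takes up the chemokine without activating G proteins. CXCL16 is made as a membrane-bound protein that can be shed, and its receptor CXCR6 marks effector and memory T cells and innate-like lymphocytes. These 10 genes, 5 for ligands (Ccl19, Ccl21, Cxcl12, Cxcl13, Cxcl16) and 5 for receptors (Ccr7, Cxcr5, Cxcr4, Ackr3, Cxcr6), are described here in cervical lymph nodes of rats. They were found by name among the 36174 gene names of the array, with no filter on signal, and covered 13 probes other than controls in 14 spots per array.

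The animals were male Sprague-Dawley rats of 10 to 12 weeks, and no genetic change is given in the labels. The C array carried lymph node RNA of an unstressed control, and the RS array that of a rat or rats held in restraint, fastened by the legs on their back on a wooden board. The labels give no restraint time for the RS array, and the array results of the study name the stressed group RS30, the shortest restraint used. Each group had 1 array, so no test between the groups was possible, and how much these genes vary from rat to rat is unknown here. How many rats gave RNA to each array is not given in the sources used here.

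RNA was labeled with the dye Cy3 and read in 1 color, and a brighter spot means more labeled copies on its 60-base probe. An array held 62976 spots and 45598 different probes. Of the probes, 54.7% on the C array and 54.9% on the RS array were marked as well above background by the scanner software. Of 308 negative control spots, 2 and 3 were so marked. Levels are given below as intensity, and differences as RS minus C on the log2 scale after the 75th percentile of each array, an intensity of 189 on C and 176 on RS, had been subtracted. A difference of 2-fold (1 on this scale) was the threshold. Of the 21096 genes above background on at least 1 array, 3.46% were higher and 4.28% were lower by 2-fold or more on the RS array, 7.74% in all.

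All 13 probes of the 10 genes were well above background on both arrays, and 0 were saturated. Their RefSeq accessions were paired with the same symbols in the current RefSeq gene table (assembly GRCr8). Of the 10 genes, 2 were higher by 2-fold or more (Ackr3 and Cxcr4) and 0 were lower. The other 8 differed by less than 2-fold, and Cxcr6, which was lower, came nearest to the threshold. The median difference of the 10 genes was 0.18, beside 0.016 over all screened genes, whose quartiles were -0.20 and 0.21. The error given with a difference joins the spot errors of the C and RS arrays, as estimated by the scanner software. For bright spots this error is mostly a fixed share of the signal. On the C array, probes printed in 10 spots had a median SD of 0.10 on the log2 scale at intensities from 32 to 128 and of 0.051 at 2048 and above, so that spots of an array repeated more closely than the reported error.

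**Figure D1:**
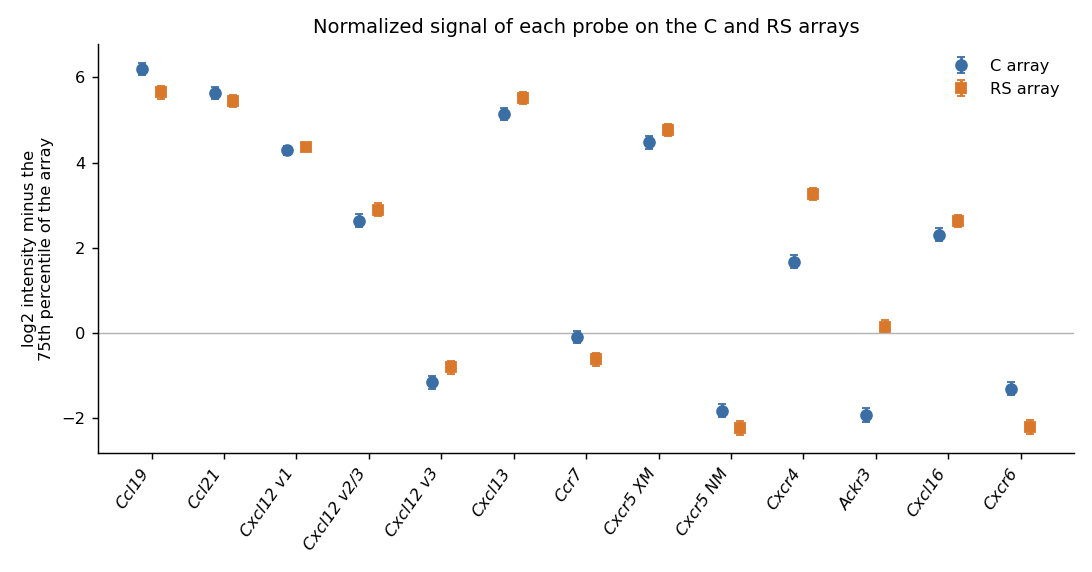
Normalized signal (log2 scale, 75th percentile at 0) of each of the 13 probes on the C array (blue circles) and the RS array (orange squares), with the spot error of the scanner software as bars. For Cxcl12, v1, v2/3 and v3 are the transcript variants the probes stand for, and for Cxcr5, XM and NM are the predicted and the curated transcript. The 2 arrays lie furthest apart for Ackr3 and Cxcr4; heights of different probes are not comparable, since probes differ in how well they bind.

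The receptors of CXCL12 had the largest differences. The sequences show what was read for Ackr3 (the last 30 bases of the probe, which has a stop triplet in every forward frame and so cannot lie wholly in coding sequence), for Cxcr4 (the whole probe, with no stop triplet in any forward frame), and for the 3 Cxcl12 probes. Of these, the probe for variant 3 is whole, since its 60 bases span 2559 bases of the chromosome and so cross an intron, and the other Cxcl12 probes are shown by their last 30 bases. Capitals mark the polyadenylation signal AATAAA, which was found in 2 of the 13 probes and in 9.04% of all probes.
Ackr3: ctttattttctcactatggatgtaccttat
Cxcr4: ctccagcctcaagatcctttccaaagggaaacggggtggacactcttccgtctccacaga
Cxcl12 variant 1: tatttacctgaAATAAAatctactagttgt
Cxcl12 variant 3: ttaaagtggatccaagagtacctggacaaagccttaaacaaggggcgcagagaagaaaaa
Cxcl12 variants 2 and 3: ctgtctcccagataatgtgaaaatggtcca

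Ackr3, the atypical receptor that removes CXCL12, was read by 1 probe at chr9:89354596-89354655 on the forward strand. Probe coordinates are printed as the scanner files give them, and rn4 is the build named at the top of those files. The C array gave an intensity of 50.02 and the RS array one of 196. The signal was thus 4.20-fold higher on the RS array, a log2 difference of 2.07 ± 0.22 (spot error, 1 spot per array). Among the screened genes with a value, 162 (0.768%) were higher by as much or more. With the normexp background correction, which adds an offset to every signal, the difference of Ackr3 was 1.26, still past 2-fold.

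Cxcr4, the signaling receptor for CXCL12, was read by 1 probe at chr13:41308900-41308959 on the reverse strand. The C array gave an intensity of 604 and the RS array one of 1690. The signal was 2.99-fold higher, a log2 difference of 1.58 ± 0.20 (spot error). As large an increase was seen in 304 screened genes (1.44%). Across 13 other ways of computing the value, the difference stayed between 1.47 and 1.61, so that the handling of the background moved Cxcr4 less than the dimmer Ackr3.

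Cxcl12 itself, the shared ligand of both receptors, differed by less than 2-fold with each of its 3 probes. The probe for variant 1 (chr4:153510285-153510344, forward strand) was printed in 2 spots, with intensities of 3641 and 3758 on the C array and of 3479 and 3800 on the RS array. The arrays overlapped at this probe, with a log2 difference of 0.074 ± 0.14 that was below 0 without normalization. The probe whose accessions name variants 2 and 3 (chr4:153516205-153516264) went from an intensity of 1178 to 1317, a difference of 0.26 ± 0.20. The probe across the intron (chr4:153508808-153511366), for variant 3, went from 84.8 to 101, a difference of 0.35 ± 0.21. The differences of the probes spread over 0.28 ± 0.25 on the log2 scale, so that the variants were not told apart.

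The starts of both receptor genes were compared, since both were higher. RefSeq promoters (GRCr8, 250 bases before the start of a gene) were found for 8 of the 10 genes. The TATA-like letters TATAAAA, or TTTTATA on the other strand, were chosen after these sequences had been seen. They occurred in 2 of the 8 promoters, those of Ackr3 and Cxcr4, and in 5.38% of 33469 promoters. Because of that choice, the contrast between these shares carries no weight. TATAAAA begins 54 bases before the start of Ackr3 and 44 bases before that of Cxcr4. In Cxcr4 both forms occur and overlap. The stretches are chr9:98247280-98247311 (forward strand) for Ackr3 and chr13:42634321-42634352 (reverse strand) for Cxcr4, with the first form in capitals. The match is a description of these letters and was not tied to any measurement of binding.
Ackr3 promoter: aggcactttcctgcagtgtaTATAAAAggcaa
Cxcr4 promoter: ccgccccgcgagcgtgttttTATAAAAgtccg

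Genes of other cell types were higher on the same array as Ackr3 and Cxcr4. All 5 erythrocyte genes above background were higher by 2-fold or more, and their summed signal (intensity over the 75th percentile) was 52.8 on C and 316 on RS. All 5 fat cell genes above background were too, with sums of 33.7 and 89.0. In the neutrophil list 3 of 5 genes were above background, with sums of 0.393 and 4.36. S100a8 and S100a9, which encode calcium-binding alarmins, made up its increase, although the second probe for S100a8 was at 1.60 where the first was at 3.99. Csf3r, the receptor for granulocyte growth factor, differed by 0.11 ± 0.29 at intensities of 18.6 on C and 18.8 on RS. The lowest signals above background were 9.45 and 8.52. Mpo and Elane, which encode proteins of neutrophil granules, were not above background. Fibroblastic reticular cells are the stromal cells that make CCL19, CCL21 and CXCL12. Of 7 genes for them, 3 were higher by 2-fold or more (Pdpn, Col1a1, Col1a2), and the sums were 59.9 and 124. The others were Des at 0.45, Pdgfrb at 0.23, Il7 at -0.23 and Pdgfra at -0.39. The collagen genes were the brightest of this list and so weighed most in its sums. Their intensities went from 3730 on C to 8236 on RS (Col1a1) and from 4821 to 10501 (Col1a2). The second probe for Pdpn was at 0.55. The part of all these cell types in the differences of Ackr3 and Cxcr4 was not tested. In whole tissue, more cells of a type and more RNA per cell cannot be told apart, and neither can fewer cells and less RNA per cell.

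**Figure D2:**
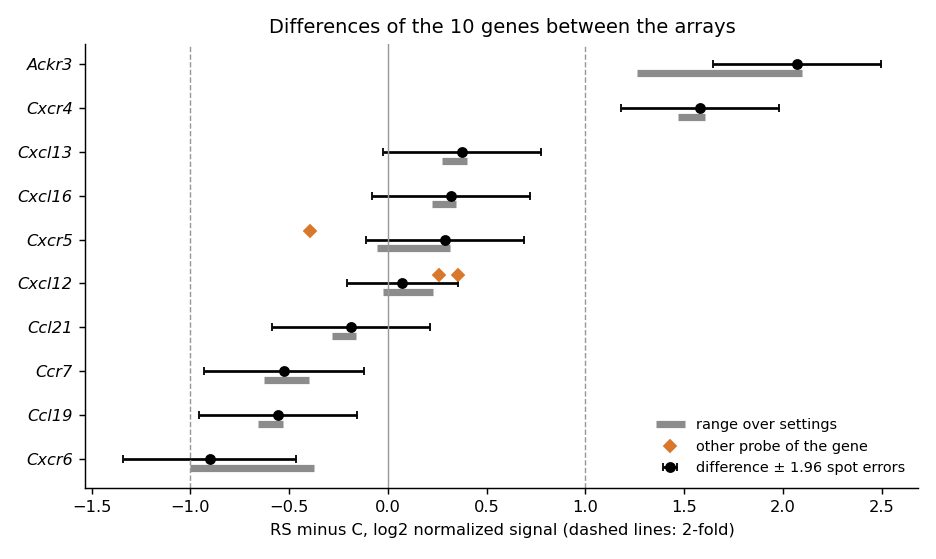
RS minus C difference in normalized log2 signal for each of the 10 genes, represented by the probe with the highest mean signal (black, with the 95% interval from the spot error). Gray bars give the range over the main and the other settings, and orange diamonds the other probes of Cxcl12 and Cxcr5. Ackr3 (2.07) and Cxcr4 (1.58) lie beyond the dashed 2-fold line with their bars, Cxcr6 (-0.90) lies just inside it, and the probes of Cxcr5 fall on either side of 0.

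All 3 genes of the CCR7 axis were lower on the RS array, each by less than 2-fold. The sequences show 30 bases of the probes for the ligands, with runs of alternating A and G in capitals, and the whole probe of the receptor, which has no such run of 6 bases. Of the screened genes whose probe has a run of exactly 6, 65.1% were below 0, compared with 46.5% for shorter runs, and in the brightest quartile these shares were 55.8% and 40.6%.
Ccl19: tgtgcctAGAGAGtcggtgtgaacgtgagt
Ccl21: aaagagggagctAGAGAGcagaaagactca
Ccr7: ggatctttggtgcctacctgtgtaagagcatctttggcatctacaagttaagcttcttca

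Ccl19, a T zone chemokine of stromal and dendritic cells, had an intensity of 13918 on C and 8832 on RS at chr5:59221790-59221849 (reverse strand). The log2 difference was -0.56 ± 0.20 (spot error). Ccl21, the other CCR7 ligand, which high endothelial venules and lymphatic vessels also carry, had an intensity of 9330 on C and 7655 on RS at chr5:59239182-59239241 (reverse strand). Its difference, -0.19 ± 0.20, did not exceed the error of the spots. Ccr7, the receptor by which naive T cells and mature dendritic cells enter the node, had an intensity of 178 on C and 115 on RS at chr10:87925806-87925865 (reverse strand). Its difference was -0.53 ± 0.21. Among all screened genes with a value, at any intensity, 8.95% were as low as Ccl19 or lower and 9.64% as low as Ccr7. Ccl19 was in the brightest quartile of genes. There, 1.92% of genes with runs of 5 or fewer were as low, and 14.2% of those with a run of 6.

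The only probes for Ccl19 and Ccl21 each hold a run of 6 alternating A and G bases, the 2 of the 13 probes that do. Among screened genes whose probe has such a run of exactly 6 bases, 590 in all, 20.3% were lower by 2-fold or more and the median difference was -0.11. With runs of 5 or fewer, these were 2.47% and 0.024, and with 8 or more, 89.4% and -2.79. Both chemokine probes were among the brightest quartile of genes, where runs of 6 went with smaller shifts. There, 14.2% of 120 genes with a run of 6 were as low as Ccl19 or lower, compared with 1.92% of 5041 genes with shorter runs. For Ccl21 these shares were 25.8% and 12.5%. Neither gene had another probe, so no value was left when such probes were left out, and the part of the runs in both differences was not tested. The probe for Ccr7 has a longest run of 4, and its difference stayed between -0.63 and -0.40 over the other settings.

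**Figure D3:**
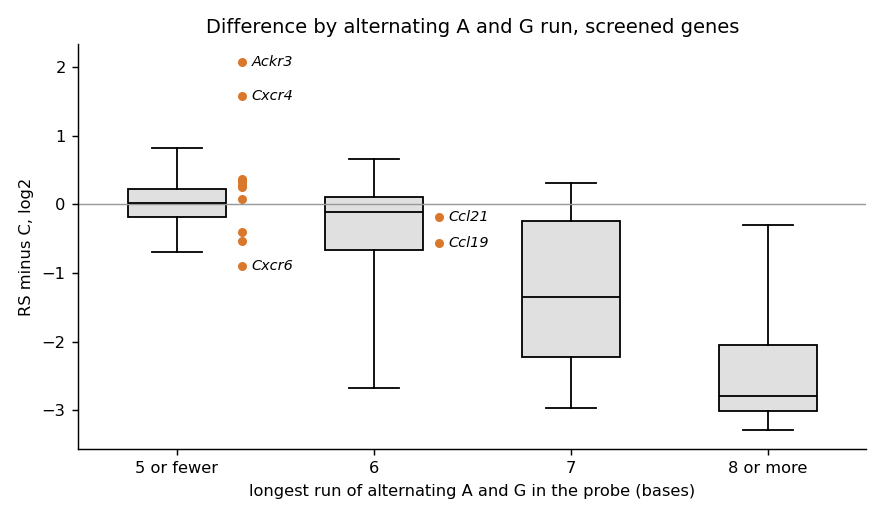
RS minus C log2 difference of the screened genes by the longest run of alternating A and G in the probe (boxes: quartiles and median; whiskers: percentiles 5 and 95). Orange points are the 13 probes of the 10 genes. Ccl19 and Ccl21 are in the group with a run of 6, whose lower whisker reaches further down than that of shorter runs; Ackr3, Cxcr4 and Cxcr6 have shorter runs.

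Ccl19 and Ccl21 are neighbors, with probes 17.4 kb apart on chromosome 5. The skin and mucosal chemokine gene Ccl27 lies 21.98 kb from Ccl19 on the other side, on the same strand. Its brightest probe went from an intensity of 30.1 to 22.1, a difference of -0.35 ± 0.26, and its 3 probes spread from -0.35 to 0.27, so that no direction was given by them. The cells that carry CCR7 were represented by T cell genes. All 6 (Cd3d, Cd3e, Cd3g, Cd2, Cd5 and Lck) were below 0, with a median of -0.37, and 0 reached 2-fold. Of all screened genes with runs of 5 or fewer, 46.5% were below 0. The CD3 chains lay near their spot errors (Cd3e -0.16 ± 0.20, Cd3d -0.15 ± 0.14, Cd3g -0.14 ± 0.14). The smallest of the list was Cd5, an inhibitor of T cell receptor signaling, at -0.97, and the largest was Cd3g, a chain of the receptor complex, at -0.14. Among naive lymphocyte genes, Il7r, the receptor for the survival factor IL-7, had the largest difference, at 0.97. In the dendritic cell list, 1 of 5 genes passed 2-fold, the maturation marker Cd83, which went from an intensity of 7099 to 13988, while Flt3, the growth factor receptor of the lineage, was at -0.12. The part of these cells in the values of Ccr7 was not tested.

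In the follicle, neither Cxcl13 nor Cxcr5 differed by 2-fold. Cxcl13, the B cell chemokine of follicular dendritic cells, had an intensity of 6689 on C and 8093 on RS at chr14:15127379-15127438 (reverse strand), a log2 difference of 0.37 ± 0.20 (spot error). Of the follicular dendritic cell genes, 5 of 5 were above background, with a median of 0.13. The highest was Fcgr2b, an inhibitory antibody receptor also found on B cells, at 0.90, and the lowest was Fcer2, the low-affinity receptor for IgE, at -0.62. Neither passed 2-fold. B cell genes had a median of -0.049 over 5 genes, none past 2-fold, and the lowest was Blk, a kinase of the B cell receptor, at -0.27.

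The 2 probes for Cxcr5 did not move together. The probe for the predicted transcript (chr8:47483699-47483758, reverse strand) went from an intensity of 4197 to 4788, a difference of 0.29 ± 0.20. The probe for the curated transcript (chr8:47485148-47485207) went from 53.4 to 37.9, a difference of -0.39 ± 0.23. The gap between them was 0.68 ± 0.30. On a gene of the reverse strand, the first probe lies 1449 bases downstream of the second, and its last bases hold the AATAAA signal in capitals; the second holds none. The mean over both probes was -0.053, so the direction of Cxcr5 depended on the probe, and no direction is given here.
Cxcr5 predicted transcript: acaagcctaaaaagtgtttcaaAATAAAaa
Cxcr5 curated transcript: taccaccttctagatcccggggtctcagcc

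Cxcl16 and its receptor lay on opposite sides of 0. Cxcl16, made by macrophages, dendritic cells and endothelium, had an intensity of 939 on C and 1095 on RS at chr10:57296159-57296218 (reverse strand), a difference of 0.32 ± 0.20 (spot error). Its sheddases Adam10 and Adam17 were at -0.052 and 0.085. Macrophage genes had a median of 0.0071 over 6 genes, from -0.34 for Csf1r, the receptor for macrophage growth factor, to 0.44 for Cd163, a scavenger receptor for hemoglobin. The second probe for Csf1r was at -0.084.

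Cxcr6 was the lowest of the 10 genes. Its intensity was 76.3 on C and 38.1 on RS at chr8:128570227-128570286 (forward strand), so that the normalized signal on RS was 0.535 times that on C. The log2 difference was -0.90 ± 0.22 (spot error), and 4.86% of the screened genes were as low or lower. It was -1.001 without normalization, past 2-fold, and -0.37 with the normexp correction. Its probe, shown whole, has a longest alternating run of 3.
Cxcr6: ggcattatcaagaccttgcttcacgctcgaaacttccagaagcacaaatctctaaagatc

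Genes of the lymphocytes that carry CXCR6 were measured in part. In the list for NK and innate-like T cells, 3 of 6 genes were above background (Nkg7, Prf1 and Gzmb), with summed signals of 10.8 on C and 8.08 on RS and differences from -0.68 for Nkg7, a granule protein, to 0.29 for the protease Gzmb. Ncr1, Klrb1 and Zbtb16, which define these cells, were not above background on either array. Prf1 was at -0.27, and the second probe for Gzmb was at 0.84. Cxcr3, the receptor of effector T cells for interferon-induced chemokines, had a difference of -0.98 ± 0.21. Xcl1, a chemokine of NK and CD8 T cells, had one of -1.18 ± 0.21. Both belong to the list of other chemokine genes (10 above 0, 9 below) and were named here after their values were seen. The part of these cells in the value of Cxcr6 was not tested.

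**Figure D4:**
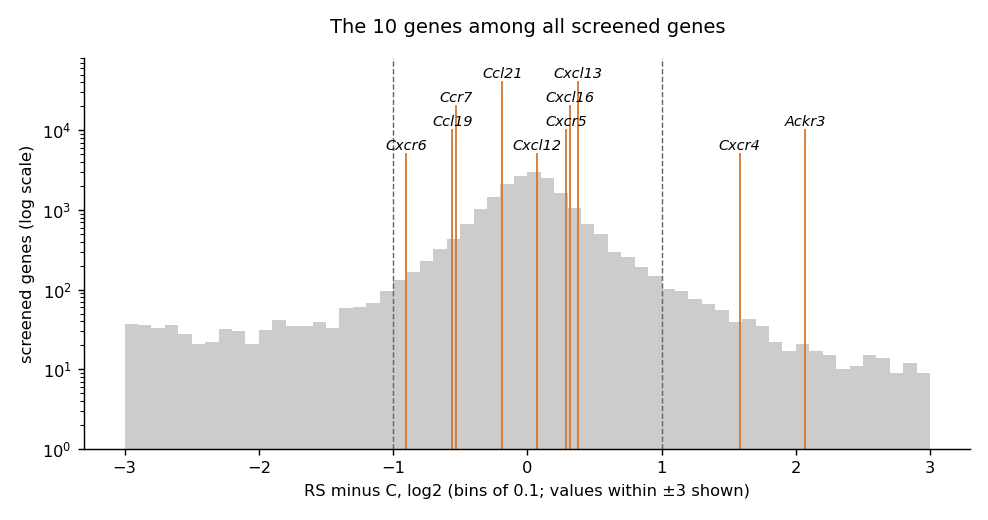
Histogram of the RS minus C log2 difference of the screened genes within ±3 (bins of 0.1, logarithmic count axis), with the 10 genes as orange lines and 2-fold as dashed lines. Only Ackr3 and Cxcr4 among the 10 lie beyond the dashed lines, where 3.46% of the genes were higher and 4.28% lower.

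The wider chemokine system was described with 4 lists. Beside their counts, 3.46% of all screened genes were higher and 4.28% lower by 2-fold or more. Of 24 other homeostatic and atypical chemokine genes, 19 were above background, with a median of 0.20; 2 were higher and 2 lower by 2-fold or more. The higher genes were Ccl20, the ligand of CCR6 (intensity 214 on C and 558 on RS, difference 1.48), and Ackr2, a scavenger of inflammatory CC chemokines (307 and 744, difference 1.37), and both probes of each gave differences above 1. The lower genes were Xcl1 (233 and 95.9) and Cx3cl1, the membrane-bound chemokine fractalkine (444 and 196, difference -1.09). These counts rest on the brightest probe of each gene. The other probe of Cxcl14, at any signal, was at 1.12 (brightest 0.65), and that of Cx3cr1 at -1.29 (brightest -0.32). Of the other atypical receptors, Ackr1, on venular endothelium and erythroid cells, was at 0.93, and Ackr4, which clears CCL19 and CCL21, was at -0.14.

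Genes for lymphocyte exit and homing had a median of 0.096 over 22 of 23 genes. By 2-fold or more, 3 were higher and 1 lower, beside 3.46% and 4.28% of all screened genes. Ch25h, which makes the precursor of the follicular guidance oxysterol, went from an intensity of 75 to 224 (difference 1.67), and Cyp7b1, the next enzyme, from 183 to 380 (1.15). Gpr183, the receptor for that oxysterol, was at 0.13. Cd69, which removes the exit receptor S1PR1 from the surface, went from 242 to 638, a 2.83-fold difference, while S1pr1 itself was at 0.13. Klf2, a transcription factor that maintains S1pr1 in resting lymphocytes, went from 569 to 256 (-1.05). High endothelial venule genes did not reach 2-fold, with Glycam1, a mucin of these venules, at 0.23, Madcam1, a vascular addressin, at 0.57, and Fut7, which builds selectin ligands, at -0.99.

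Genes that organize lymphoid stroma and sustain Ccl19, Ccl21 and Cxcl13 had a median of -0.11 over 13 of 15 genes. Ltb and Lta, which encode lymphotoxin, were at -0.46 and -0.43, and their receptor Ltbr was at 0.43. Only Pdpn, the podoplanin of reticular and lymphatic cells, passed 2-fold (684 and 1427, difference 1.16), and its second probe was at 0.55. Of the genes for chemokine receptor signaling and processing, 21 of 22 were above background, with a median of -0.062. Rgs1, which shuts off signaling from chemokine receptors, went from 1138 to 3439 (1.69) and was the only one past 2-fold. Gnai2, the main G protein subunit of these receptors in lymphocytes, was at -0.062, and Dpp4, a protease that inactivates CXCL12, was at -0.31.

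Of the remaining marker lists, lymphatic endothelial genes had a median of 0.20 over 4 genes, from -0.25 (Flt4) to 0.65 (Lyve1). Blood and high endothelial genes had a median of 0.0048 over 7, and plasma cell genes a median of -0.25 over 5, from -0.31 (Sdc1) to 0.72 (Prdm1). None of these passed 2-fold. The largest differences among the erythrocyte genes were those of Alas2 (2.86), Hbb (2.61), Hba1 (2.60) and Hbb-b1 (2.55), and among the fat cell genes those of Lep (3.24), Cidec (2.97), Adipoq (2.74) and Fabp4 (1.63). Globin copies resemble each other closely, so their probes may not be independent, and the other probe for Lep was at 0.57.

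**Figure D5:**
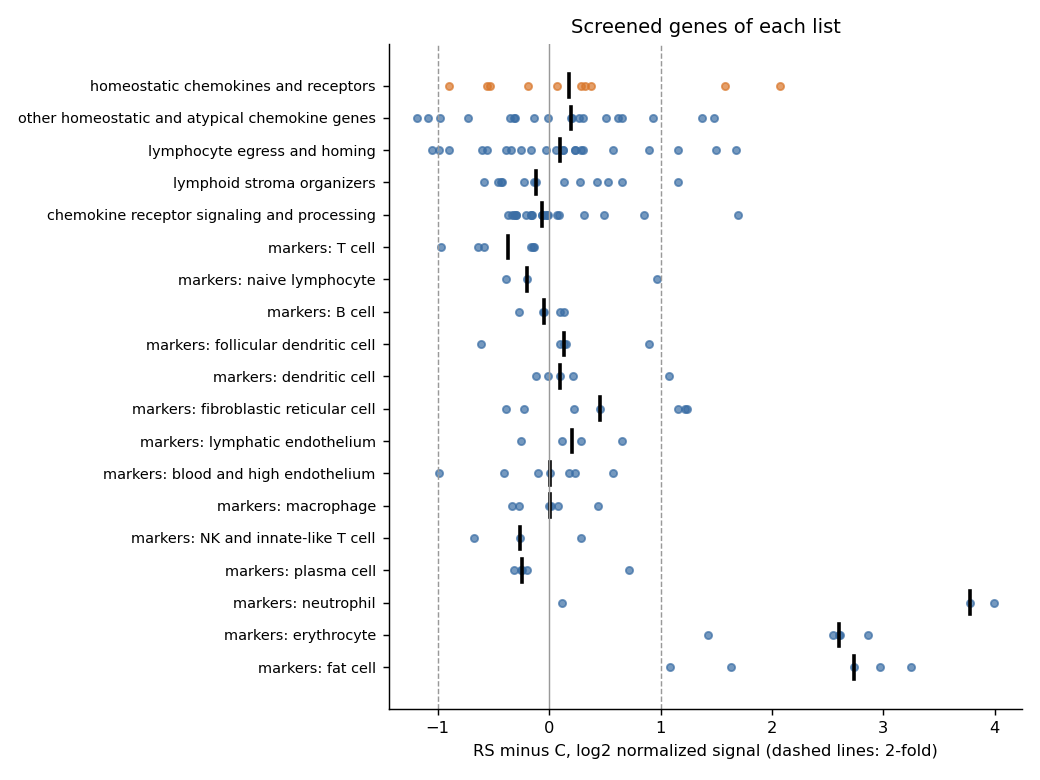
RS minus C log2 difference of each screened gene (points) in the 10 chemokine and receptor genes (orange) and in the 18 other lists (blue), with the median of each list as a black bar and 2-fold as dashed lines. The medians of the neutrophil (3.78), erythrocyte (2.60) and fat cell (2.74) lists lie beyond 2-fold, and those of the other lists between -0.37 and 0.45.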

How the data were processed

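RNA of cervical lymph nodes was measured on 2 Agilent SurePrint G3 Rat GE 8X60K arrays, 1 labeled control (C) and 1 labeled restraint stress (RS). The authors extracted spot intensity values with Agilent Feature Extraction (11.5.1.1 in the submitters' processing notes), which subtracted background within each array. The deposited log2 table (column medians -3.51 for C and -3.54 for RS) matched the values computed here in scale and centring, with 100% of 45598 probes within 0.1.

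Control spots and outlier spots (489 on C, 660 on RS) were left out, repeated spots were averaged per probe on the log2 scale, and the 75th percentile of the array was taken off, as in the study's methods. The brightest probe by mean signal stood for a gene, which was screened when over 50% of the spots of that probe passed the well-above-background mark on either array. If this held on 1 array only, its fold change was a lower bound against the lowest signal above background. No p-value was computed, since a group held 1 array, and the number of arrays limits the precision. The arrays shared slide and scan.

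The genes described and the 18 other lists were chosen with earlier results of these data known, and so were the settings. From a list, each gene past 2-fold was named (the 4 largest where there were more), otherwise the largest and the smallest difference; other genes were named for their role after their values were seen. Jchain was read under the older name Igj, and Ccr8, Tcf7, Cd79a and Itgax were not analysed here, and the named values of 2 other list genes are not reported here. The 16 alternatives covered scaling, background correction (normexp, offset 50), filters, probes and thresholds. The steps were tested on simulated arrays. R 4.3.3, limma 3.58.1, Python 3.11.15, numpy 2.4.6, pandas 2.3.3 and matplotlib 3.10.9 were used.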

Additional observations from a re-analysis of the deposited data

How the results depend on the processing

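No paired analysis was possible because neither group holds more than 1 array, and no replicate could be left out. Slide and scan were shared by both arrays, so neither was used as a block. Ackr3 and Cxcr4 were past 2-fold under all 16 alternatives, and no gene past 2-fold changed its direction among the 10. With the normexp background correction, whose added offset by construction makes differences at low signal smaller, Ackr3 was at 1.26 and Cxcr6 at -0.37 on the log2 scale. When all probes of a gene were averaged, Cxcl12 was at 0.23 and Cxcr5 at -0.053. The number of the 10 genes that were lower was 1 instead of 0 without normalization and with a threshold of 1.5-fold (Cxcr6 in both). Ccl19 and Ccl21 had no value with alternating probes left out.

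Over all screened genes, 730 were higher and 903 lower by 2-fold or more. These counts were 234 and 378 with normexp, 2031 and 2148 without a filter, and 1681 and 1784 at 1.5-fold. With genes above background on both arrays, where fewer genes qualify by construction, they were 493 and 601. With alternating probes left out they were 716 and 498, so that the lower count changed by more than the higher count. Of 234 list medians under the alternatives, 225 moved by less than the median spot error of their genes and 9 moved by more. The neutrophil median of 3.78 was 0.11 without a filter, 1.98 with normexp and 2.79 with probes averaged. For fat cell genes, at 2.74, these were 2.18, 1.48 and 1.90. The erythrocyte median of 2.60 was 2.33 with normexp. The naive lymphocyte median turned from -0.20 to 0.39 with alternating probes left out, and that of other chemokine genes from 0.20 to -0.043 without a filter.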
